A study of Mus musculus with 12 samples.

Results

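The kallikrein-related proteases and their inhibitor Spink5 were followed through cultured dental epithelial colonies of 3 genotypes. The family was taken as 10 named genes, and each gene's members were all probes, other than control probes, whose accession mapped to its symbol. Of the 10 genes, 8 had a probe: Klk5, Klk6, Klk7, Klk8, Klk10, Klk11, Klk14 and Spink5. They were carried by 10 probes of the 41174 on the array, with 3 for Klk7 and 1 for each of the other genes. All 8 passed the filter on dim signals and stand among 31064 genes tested. Klk12 and Klk13 were not analysed here.

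Kallikrein-related proteases are secreted serine proteases of surface epithelia, made as inactive precursors that cut and activate one another in a cascade. In skin, Klk5, Klk7 and Klk14 cut the corneodesmosomes that hold cornified cells together, which lets those cells be shed. Spink5 encodes LEKTI, an inhibitor made by the same upper epithelial layers that holds these proteases in check, and its loss in people causes the skin disease Netherton syndrome. In tooth, a different kallikrein, Klk4, clears the enamel matrix as enamel matures.

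The samples were 12 single colonies grown in culture from epithelium of the labial cervical loop, the stem cell niche at the base of the mouse incisor, 4 of each genotype. One group carried null alleles of both Bmi1 and the Ink4a/Arf locus (labelled Bmi1-;Ink4a/Arf-, here double mutant), one was null for Bmi1 alone (Bmi1-, here Bmi1 mutant), and the third was wild type (WT). Bmi1 is a subunit of a Polycomb repressive complex, and Ink4a/Arf, the gene Cdkn2a, is its classical repressed target. All mice were of mixed genetic background. The labels name the colonies biological replicates, but how many animals they came from is not stated there, so p-values measure the spread between colonies. RNA of each colony was hybridised to 1 Agilent 1-colour array. Levels below are log2 signals after each array's own 75th percentile was subtracted, so a level of 0 lies at that percentile, and a difference of 1 is a doubling of signal. Levels are compared between samples for 1 probe, never between probes.

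The arrays differed in ways that bear on every value. The 12 epithelial markers examined were well above background on all 12 arrays, Krt14 and Krt5 among them. Cdkn2a was well above background on 0 of 4 double mutant, 4 of 4 Bmi1 mutant and 0 of 4 wild-type arrays. Bmi1 had levels of -2.79 to -2.32 in double mutant, -2.46 to -2.14 in Bmi1 mutant and -0.89 to 0.18 in wild-type colonies on probe A_51_P121547, well above background on all 12 arrays. On its probe A_52_P39157 it was well above background on 1 of 4 double mutant, 1 of 4 Bmi1 mutant and 4 of 4 wild-type arrays. The labels do not say whether either probe lies in the deleted part of the gene. On average 80.1% of probes were well above background in double mutant, 82.5% in Bmi1 mutant and 94.6% in wild-type colonies. The interquartile range of log2 signal was 4.69 ± 0.36 in double mutant, 4.52 ± 0.18 in Bmi1 mutant and 2.56 ± 0.06 in wild-type colonies (SD, n = 4 each). Wild-type arrays thus had a narrower spread of signals, and the median log2 difference over all genes was -1.41 for double mutant minus wild type and -1.24 for Bmi1 mutant minus wild type. With median scaling, with quantile normalisation and in the authors' table it was -0.38 to -0.07 for the double mutant and -0.31 to -0.08 for the Bmi1 mutant. Differences of the family members against wild type are therefore also given relative to the median of all genes. For other genes they mostly are not, and those differences include this shift. Subtracting that median moves all genes alike, so the difference in spread between genotypes stays in the values.

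Klk7, Klk6 and Klk5 lie next to each other in this order on chromosome 7, and they gave the 3 largest differences between the mutants. Their promoter windows are shown for that reason. The letters are the 250 bases before each gene's start in RefSeq, build GRCm38.p6, plus strand, 5′ to 3′, at chr7:43811044-43811293 for Klk7, chr7:43824294-43824543 and chr7:43825200-43825449 for the upstream and downstream starts of Klk6, and chr7:43842019-43842268 for Klk5.
Klk7: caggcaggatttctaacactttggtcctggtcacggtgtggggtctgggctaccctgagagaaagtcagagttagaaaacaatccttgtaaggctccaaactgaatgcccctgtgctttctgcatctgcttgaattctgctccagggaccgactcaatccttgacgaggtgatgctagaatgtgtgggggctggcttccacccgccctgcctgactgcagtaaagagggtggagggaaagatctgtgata
Klk6 upstream start: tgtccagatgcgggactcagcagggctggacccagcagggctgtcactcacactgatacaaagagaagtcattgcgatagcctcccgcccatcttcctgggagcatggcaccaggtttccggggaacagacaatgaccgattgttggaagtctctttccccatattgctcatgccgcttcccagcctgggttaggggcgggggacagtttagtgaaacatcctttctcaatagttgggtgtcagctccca
Klk6 downstream start: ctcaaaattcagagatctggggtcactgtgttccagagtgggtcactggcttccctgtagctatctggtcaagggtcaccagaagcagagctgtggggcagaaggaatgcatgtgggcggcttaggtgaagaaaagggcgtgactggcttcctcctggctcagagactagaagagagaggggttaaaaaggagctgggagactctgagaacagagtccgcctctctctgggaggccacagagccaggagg
Klk5: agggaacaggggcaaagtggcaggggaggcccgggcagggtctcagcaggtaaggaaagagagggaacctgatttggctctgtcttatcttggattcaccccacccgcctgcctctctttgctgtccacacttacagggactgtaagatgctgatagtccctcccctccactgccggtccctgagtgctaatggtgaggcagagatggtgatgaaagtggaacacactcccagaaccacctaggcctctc
Capitals would mark a match, on either strand, to TGANTCA (bound by AP-1), GGGTGTG (KLF factors) or TATAAA (the TATA box). No letter is in capitals, since none of these motifs occurs in the 4 windows. Windows were at hand for 9 of the 10 genes, 11 windows in all, and 0 of 11 held any of the 3 motifs. Of all 32817 RefSeq windows of the same length, 6.75% held TGANTCA, 6.93% held GGGTGTG and 12.4% held TATAAA.

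Klk7, the chymotrypsin-like enzyme of the cornified layer, had the largest difference between the mutants. Its brightest probe had levels of -0.40, -0.63, -0.95 and 5.14 in double mutant colonies, against 4.26, 4.12, 4.64 and 4.83 in Bmi1 mutant colonies and 0.95, 0.57, 0.93 and 0.39 in wild-type colonies. The Bmi1 mutant colonies were uniformly high, and 3 double mutant colonies were below every wild-type colony, while double mutant replicate 4 was the highest of all 12 arrays. A second probe, A_52_P538490, gave -3.07, -3.05, -4.03 and 2.45 in double mutant colonies, against 1.74, 1.12 and 1.60 in Bmi1 mutant and -0.60, -1.04, -0.66 and -0.90 in wild-type colonies. Its spot on Bmi1 mutant replicate 3 was marked as an outlier by the scanner software and was left out of the fit. The third probe, A_51_P151159, gave -3.38, -3.14, -4.74 and 2.81 in double mutant, 2.33, 1.79, 1.86 and 2.44 in Bmi1 mutant and -2.14, -2.24, -2.30 and -2.77 in wild-type colonies. The third probe was well above background on 3 of 4 double mutant arrays. All 3 probes placed double mutant replicate 4 above every other array and the other 3 double mutant colonies below every other array.

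**Figure D1:**
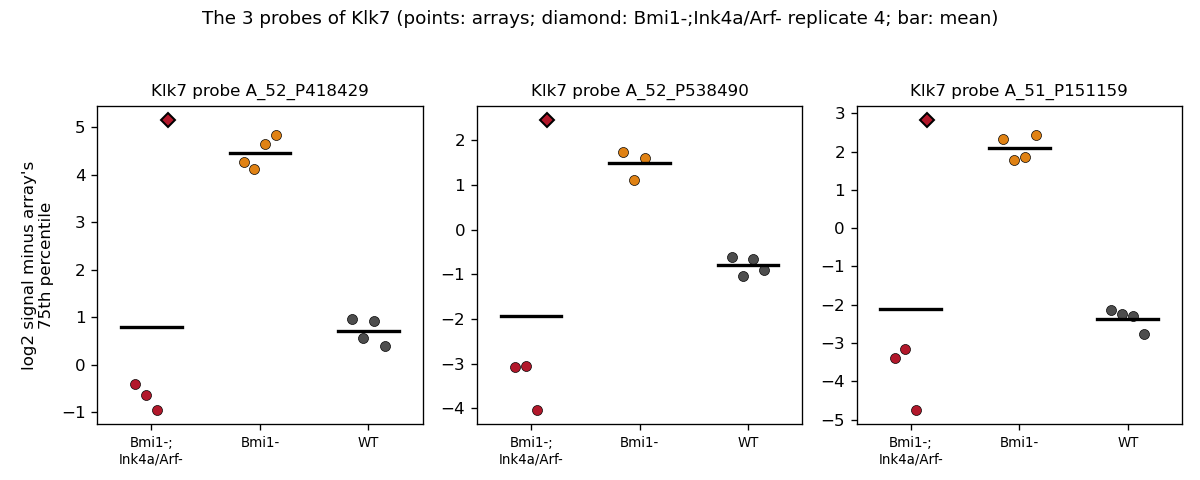
Levels of Klk7 on its 3 probes, as log2 signal with the array's 75th percentile subtracted, for 4 colonies of each genotype, except 3 Bmi1- colonies for A_52_P538490. Points are single arrays, the diamond is double mutant (Bmi1-;Ink4a/Arf-) replicate 4, bars are group means, and each panel has its own scale. On the probe A_52_P418429 the diamond lies at 5.14 and the other double mutant colonies between -0.95 and -0.40.

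Klk6, a trypsin-like kallikrein of skin and nervous tissue and the next gene along the chromosome, had levels of -2.56, -1.16, -0.95 and 3.85 in double mutant colonies, against 3.19, 3.68, 2.27 and 3.21 in Bmi1 mutant and -0.02, 0.34, -0.26 and -0.52 in wild-type colonies. Again the Bmi1 mutant colonies lay far above wild type, 3 double mutant colonies lay below it, and double mutant replicate 4 was the highest array. Klk5, a trypsin-like enzyme that can activate Klk7 and Klk14, had levels of -3.50, -5.14, -3.97 and 2.54 in double mutant colonies, against 0.61, -0.24, -1.62 and -0.01 in Bmi1 mutant and 0.62, -0.25, 0.48 and 0.00 in wild-type colonies. Here Bmi1 mutant and wild-type colonies overlapped, and 3 double mutant colonies lay below all of them.

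The other members had a smaller gap between the mutants. Klk14, a trypsin-like enzyme of the shedding cascade, had 5.49, 6.39, 5.10 and 7.68 in double mutant, against 6.88, 7.09, 7.15 and 7.50 in Bmi1 mutant and 4.42, 3.80, 1.25 and 0.43 in wild-type colonies. The wild-type colonies fell into a higher pair and a lower pair, and both mutants lay above all 4. Klk8, also called neuropsin, had 2.93, 3.60, 3.33 and 4.71 in double mutant, against 3.77, 4.37, 4.52 and 4.45 in Bmi1 mutant and 1.09, 1.41, 0.13 and 0.62 in wild-type colonies. Klk10 had 2.16, 2.81, 3.34 and 5.06 in double mutant, against 4.56, 4.22, 4.72 and 4.55 in Bmi1 mutant and 1.68, 1.50, 1.44 and 1.06 in wild-type colonies. For Klk8 and Klk10 both mutants lay above every wild-type colony. Klk11 had -0.82, 0.29, -0.50 and 1.89 in double mutant, against 0.51, 0.83, 1.50 and 0.54 in Bmi1 mutant and -0.32, -0.70, -0.64 and -0.81 in wild-type colonies. The 3 low double mutant colonies spanned the wild-type range of Klk11, and all 4 Bmi1 mutant colonies lay above it.

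Spink5 is the inhibitor. Its levels were 3.85, 4.29, 4.35 and 5.69 in double mutant colonies, against 5.73, 5.25, 5.30 and 5.38 in Bmi1 mutant and 3.61, 4.08, 2.55 and 2.73 in wild-type colonies. All Bmi1 mutant colonies lay above all wild-type colonies, double mutant replicate 4 lay among the Bmi1 mutant colonies, and the other double mutant colonies lay below them. Klk4, the enamel kallikrein, was below every wild-type colony in both mutants: it had -2.56, -1.97, -2.87 and -2.54 in double mutant, against -2.27, -4.29, -1.99 and -1.64 in Bmi1 mutant and 0.87, 0.01, 0.96 and 0.25 in wild-type colonies. Of all genes, 56.9% in double mutant and 56.3% in Bmi1 mutant colonies likewise lay below wild type without overlap.

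**Figure D2:**
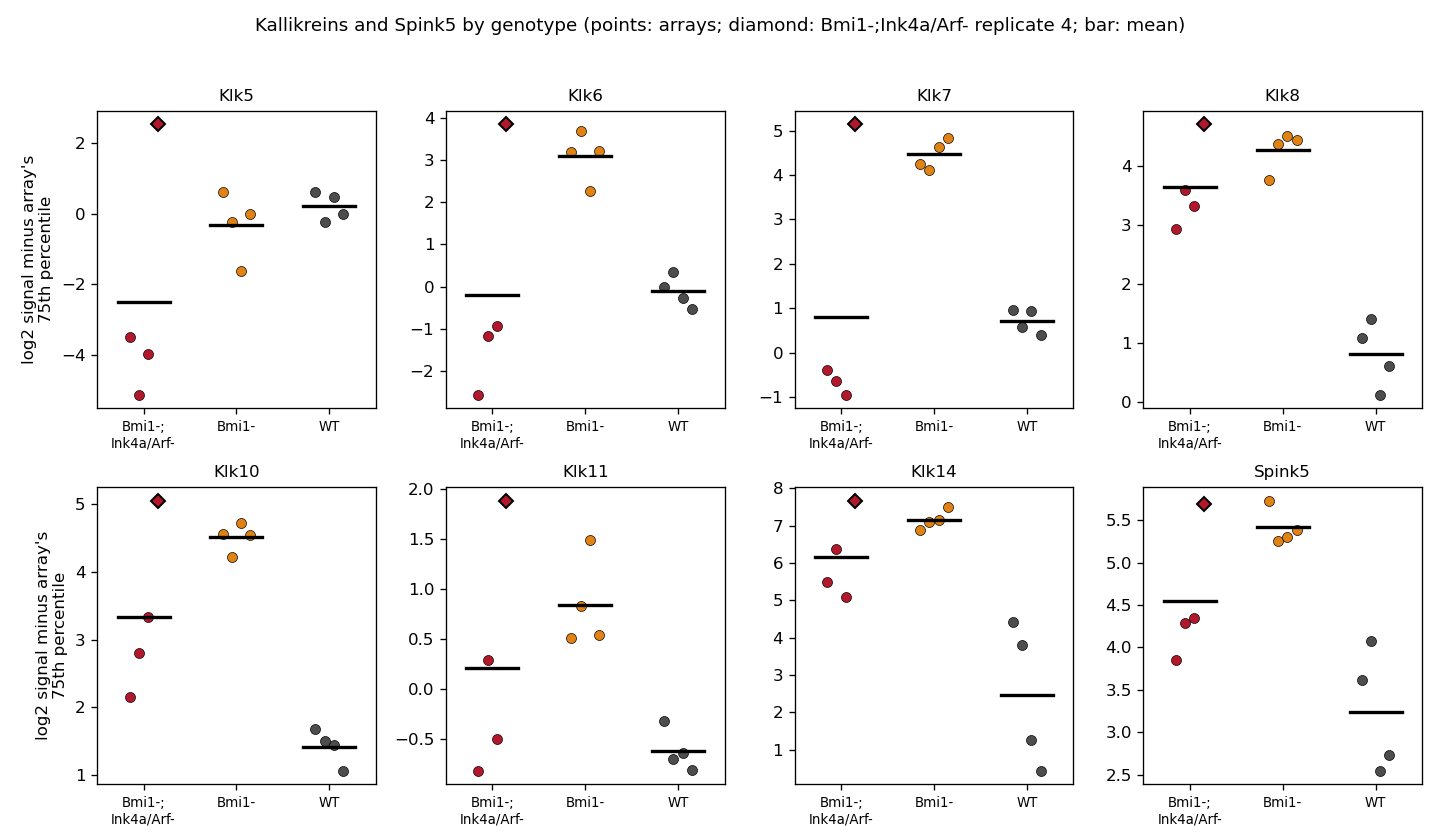
Levels of the 8 genes in every colony, as log2 signal with the array's 75th percentile subtracted, with Klk7 by its brightest probe. Points are single arrays (4 per genotype), the diamond is double mutant (Bmi1-;Ink4a/Arf-) replicate 4, bars are group means, and each panel has its own scale. In all 8 panels the diamond lies above the other 3 double mutant colonies.

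Double mutant replicate 4 therefore decides much of what follows. It lay above the highest of the other 3 double mutant colonies for 8 of 8 genes, against 17.3% of all genes. It exceeded their mean by more than 1 log2 unit for 8 of 8 genes, against 3.96% of all genes. The excess was 6.74 for Klk5, 5.80 for Klk7 and 5.41 for Klk6, and between 1.42 for Klk8 and 2.29 for Klk10 for the other 5. Over all genes its mean Spearman correlation was 0.966 with the other double mutant arrays and 0.960 with the Bmi1 mutant arrays, so it did not lie clearly with either. Its correlation with Bmi1 mutant replicate 1 was 0.971, and those with double mutant replicates 1, 2 and 3 were 0.960, 0.967 and 0.971. It shared a slide with double mutant replicate 1, which was low.

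Marker lists moved in the same array. Of 16 markers of suprabasal and cornifying epithelium, 14 lay above the other 3 double mutant colonies in it, and 2 of the 16 are also counted among the desmosomal substrates below. Krt1 and Krt10, keratins of differentiating skin layers, were 7.96 and 6.45 above the mean of the others, and Lor, the cornified envelope protein loricrin, was 5.99 above it. These were the largest rises of the list, and Ivl went the other way, with a difference of -1.51. The summed linear level of this list was 292, 408, 480 and 878 in double mutant colonies, against 565 to 799 in Bmi1 mutant and 87.3 to 185 in wild-type colonies. Bright genes weigh most in such a sum. The mean log2 level of the list was 1.03, 1.01, 0.88 and 3.23 in double mutant colonies. It was 2.31 to 2.72 in Bmi1 mutant and 0.64 to 1.46 in wild-type colonies, so the other 3 double mutant colonies lay within the wild-type range. In Bmi1 mutant colonies 11 of the 16 were called higher than in wild type and 4 lower (Krt4, Ivl, Sprr2d and Tgm3). Across all genes 25.2% were called higher and 58.3% lower. In double mutant colonies 5 were called higher than in wild type and 4 lower, where 25.5% of all genes were higher and 59.9% lower. Of 12 markers of mesenchyme and fibroblasts, 10 lay above the other double mutant colonies in replicate 4, with a summed level of 40.8 in that array, 5.45 to 9.68 in the other double mutant arrays, 5.25 to 10.2 in Bmi1 mutant and 12.2 to 14.8 in wild-type arrays. In that array 12 of 12 epithelial, 16 of 16 suprabasal, 11 of 12 mesenchymal, 7 of 9 immune, 4 of 5 endothelial and 3 of 6 ameloblast markers were well above background. For immune cells 0 of 9 markers, for endothelium 0 of 5 and for ameloblasts 0 of 6 lay above the other double mutant colonies, and 4 of 12 epithelial markers did. The part of these shifts in the values of the kallikreins was not tested. In these bulk samples fewer cells of a type and less RNA per cell cannot be told apart.

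Removing Ink4a/Arf on top of Bmi1 was examined by setting the 2 mutants against each other. With all 4 double mutant colonies, Klk7 was lower and the other 7 genes were not called, though all 8 differences were negative. Across all genes 4.8% were called lower and 2.75% higher (limma, Benjamini-Hochberg adjusted p under 0.05). Klk7 averaged 0.79 in double mutant and 4.46 in Bmi1 mutant colonies, 12.8-fold lower, a log2 difference of -3.67 ± 1.03 (SE, n = 4 each, limma adjusted p = 0.0478). The groups overlapped for all 8 genes, where 7.43% of all genes were lower and 6.35% higher without overlap. The call of Klk7 ended with normexp background correction, median scaling, quantile normalisation, no filter on dim probes, the replicate block or only the 8 mutant arrays, with log2 differences of -3.35 to -3.67 and limma adjusted p of 0.0503 to 0.147. It also ended when any 1 array other than double mutant replicate 4 was left out. Of its 3 probes fitted separately, A_52_P538490 was not called (-3.41, limma adjusted p = 0.102) and the other 2 were. Klk6 differed by -3.29 ± 1.0 (limma adjusted p = 0.067) and Klk5 by -2.20 ± 1.25 (limma adjusted p = 0.337). Spink5 differed by -0.87 ± 0.41 (limma adjusted p = 0.233), and Klk8, Klk10, Klk11 and Klk14 by -0.63 to -1.17 with adjusted p of 0.158 to 0.524. At an unadjusted p under 0.05, 3 genes were lower and 0 higher. The shares of all genes above are for adjusted p, so they are no background for this count. No share at an unadjusted p is given, so the count cannot be read as a result about the family. The median difference of the 8 genes was -1.08, and that of all genes was -0.07.

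Without double mutant replicate 4, 5 of 8 genes were lower in the double mutant than in the Bmi1 mutant and 0 were higher, where 4.61% of all genes were lower and 2.32% higher. Klk7 averaged -0.66 in the 3 double mutant and 4.46 in the 4 Bmi1 mutant colonies, 34.9-fold lower (log2 difference -5.12 ± 0.25 SE, limma adjusted p = 4.49e-06). Replicate 4 was left out after it was seen to stand apart on these same genes, which removes their spread within the double mutant, so p-values without it, here and below, are conditioned on that choice and are too small. Klk6 was 25.0-fold lower (-4.64 ± 0.42, limma adjusted p = 0.000102) and Klk5 14.8-fold lower (-3.89 ± 0.50, limma adjusted p = 0.00109). Klk10 was 3.35-fold lower (-1.75 ± 0.28, limma adjusted p = 0.00391) and Klk11 2.29-fold lower (-1.19 ± 0.31, limma adjusted p = 0.0406). Spink5 at -1.25 ± 0.34 (adjusted p = 0.051), Klk8 at -0.99 ± 0.32 (adjusted p = 0.0909) and Klk14 at -1.50 ± 0.80 (adjusted p = 0.32) did not pass. The median of the 8 genes was then -1.62, against -0.01 for all genes.

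**Figure D3:**
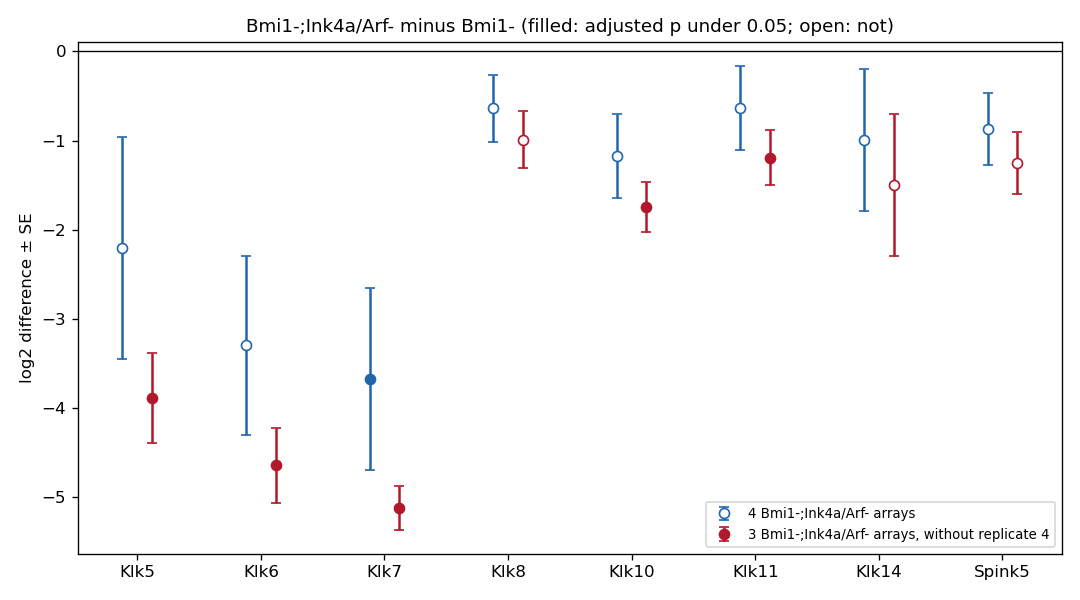
Double mutant (Bmi1-;Ink4a/Arf-) minus Bmi1 mutant (Bmi1-) difference of each gene in log2 units, with its standard error, from 4 double mutant colonies (blue) and from 3, without replicate 4 (red), each against 4 Bmi1 mutant colonies. Filled points have an adjusted p under 0.05. Klk7 moves to -5.12 from -3.67 when replicate 4 is left out.

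Arrays on the same slide gave the same sign wherever replicate 4 was absent. On slide 2, with 1 array of each genotype, double mutant minus Bmi1 mutant was -5.07 for Klk7, -4.62 for Klk6 and -3.73 for Klk5, and -0.88 to -2.0 for the other 5 genes. On slide 3, double mutant replicate 1 alone minus the Bmi1 mutant array was -5.04 for Klk7, -4.83 for Klk6 and -1.88 for Klk5, and -1.45 to -2.57 for the other 5. With replicate 4 averaged in, slide 3 gave -2.27 for Klk7, -1.63 for Klk6 and 1.14 for Klk5. These within-slide values rest on 1 or 2 arrays a genotype and carry no test.

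Along the chromosome the difference between the mutants was uneven. In the RefSeq order Klk14, Klk13, Klk12, Klk11, Klk10, Klk9, Klk8, Klk7, Klk6, Klk5, Klk4 and Klk15, the block of Klk7, Klk6 and Klk5 had the 3 largest differences between double mutant and Bmi1 mutant colonies. Klk8, the next gene before that block, differed by -0.63 ± 0.38, or -0.99 ± 0.32 without replicate 4. Klk4 and Klk15, the next genes after it, differed by 0.06 ± 0.48 and 0.03 ± 0.38, or 0.08 ± 0.54 and 0.03 ± 0.42 without replicate 4. Klk9 was not called with all arrays (-0.45 ± 0.30, limma adjusted p = 0.425) and was lower without replicate 4 (-0.79 ± 0.19, limma adjusted p = 0.0299). Whether neighbours differ from one another was not tested.

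**Figure D4:**
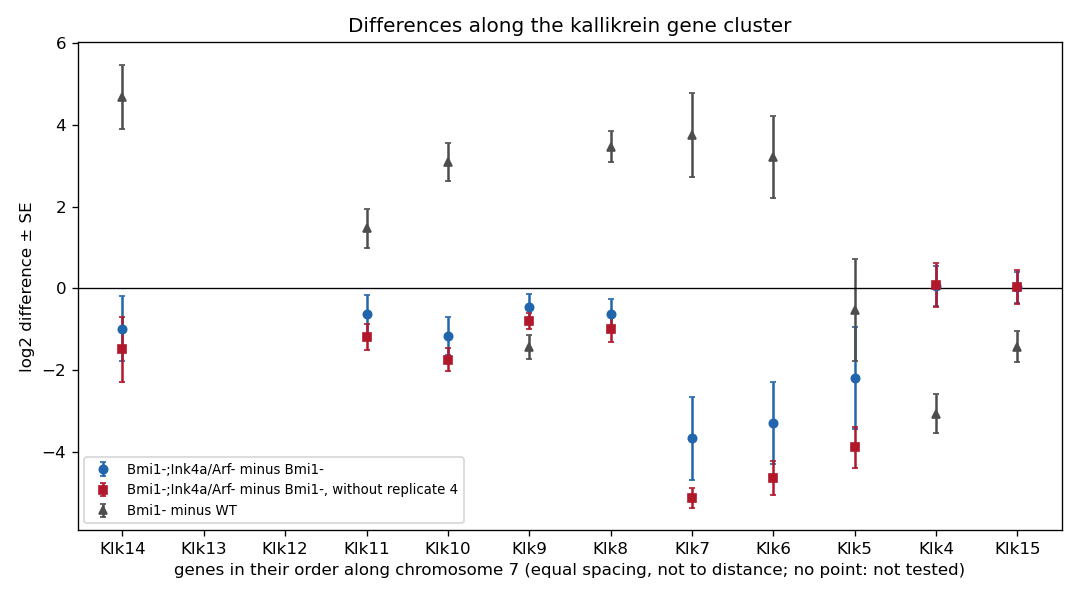
Log2 differences with standard errors for the kallikrein genes in their order along chromosome 7, equally spaced: double mutant minus Bmi1 mutant with all arrays (blue circles) and without double mutant replicate 4 (red squares), and Bmi1 mutant minus wild type (grey triangles). Genes without a point were not tested. Klk7, Klk6 and Klk5 lie lowest between the mutants and Klk4 and Klk15 lie at about 0, while against wild type Klk14 is highest at 4.68.

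Set against wild type, Bmi1 mutant colonies had higher kallikreins and a higher inhibitor. Of 8 genes 7 were higher, 0 lower, and Klk5 was not called. Across all genes 25.2% were called higher and 58.3% lower. Klk14 averaged 7.16 in Bmi1 mutant and 2.48 in wild-type colonies, a difference of 4.68 ± 0.79 (SE, n = 4 each, limma adjusted p = 0.000127). Klk7 was 3.75 ± 1.03 higher on its brightest probe (limma adjusted p = 0.00427), while its probe A_52_P538490 was not called (2.29, limma adjusted p = 0.0877). Klk8 was 3.47 ± 0.38 higher (limma adjusted p = 3.17e-06) and Klk6 3.20 ± 1.0 higher (limma adjusted p = 0.00973). Klk10 was 3.09 ± 0.47 higher, Spink5 2.17 ± 0.41 and Klk11 1.46 ± 0.47, with limma adjusted p of 4.9e-05 to 0.0117. Relative to the median of all genes these 7 differences were 2.70 for Klk11 to 5.92 for Klk14. Their size depends on the scaling. Over all 8 genes the median of such relative differences was 4.39 here, 2.69 with quantile normalisation and 2.93 in the authors' table. With only probes well above background on all 12 arrays it was 3.46. The same 7 genes did not overlap with wild type in any colony, against 23.8% of all genes higher and 56.3% lower without overlap. Klk5 averaged -0.32 in Bmi1 mutant and 0.21 in wild-type colonies (-0.53 ± 1.25, limma adjusted p = 0.7), which is 0.71 above the median of all genes. Bmi1 mutant arrays had a wider spread of signals and a higher summed suprabasal marker level than wild-type arrays, as given above, and the part of either was not tested. On slides 1 and 2, which held both genotypes, the 7 genes were 1.01 to 4.35 and 1.17 to 3.55 higher in Bmi1 mutant.

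Between double mutant and wild-type colonies the family split. Klk14, Klk8, Klk10 and Spink5 were higher in double mutant colonies, 0 genes were lower and 4 were not called, where 25.5% of all genes were called higher and 59.9% lower. Klk14 was 3.69 ± 0.79 higher (limma adjusted p = 0.000768), Klk8 2.83 ± 0.38 (limma adjusted p = 1.5e-05), Klk10 1.92 ± 0.47 (limma adjusted p = 0.00187) and Spink5 1.30 ± 0.41 (limma adjusted p = 0.00892). Klk8, Klk10 and Klk14 did not overlap with wild type, against 24.6% of all genes higher and 56.9% lower without overlap. The call for Spink5 was lost with quantile normalisation, where its difference was 0.17, and in the authors' table, where it was 0.32. Klk7 differed by 0.08 ± 1.03 (limma adjusted p = 0.943) and Klk6 by -0.09 ± 1.0 (limma adjusted p = 0.936). Klk11 differed by 0.83 ± 0.47 (limma adjusted p = 0.117) and Klk5 by -2.73 ± 1.25 (limma adjusted p = 0.0558). Relative to the median of all genes, Klk7 was at 1.49, Klk6 at 1.32, Klk11 at 2.24 and Klk5 at -1.33. The called genes were at 5.09 for Klk14, 4.24 for Klk8, 3.32 for Klk10 and 2.71 for Spink5. These relative values depend on the scaling. The median of the family relative to all genes was 2.47 here, 0.77 with quantile normalisation and 0.94 in the authors' table. Klk11 was called higher with median scaling, with quantile normalisation and in the authors' table.

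Without double mutant replicate 4 the same comparison called the same 4 genes higher and 3 lower, where 25% of all genes were higher and 58.7% lower. Klk5 was 21.4-fold lower in double mutant than in wild-type colonies (-4.42 ± 0.50, limma adjusted p = 9.31e-06). Relative to the median of all genes its difference was -3.1. Klk6 at -1.44 ± 0.42 (limma adjusted p = 0.00691) and Klk7 at -1.37 ± 0.25 (limma adjusted p = 0.000282) passed the test, but relative to the median of all genes their differences were -0.12 and -0.05. The other 4 calls were 3.18 for Klk14, 2.48 for Klk8, 1.35 for Klk10 and 0.92 for Spink5. Relative to the median of all genes these were 4.50, 3.80, 2.67 and 2.24. The comparisons share arrays, so their values are set side by side without a test of likeness.

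Of 26 other protease inhibitors of epithelia tested, 0 were higher and 5 lower in the double mutant than in the Bmi1 mutant, where 2.75% of all genes were higher and 4.8% lower. Without replicate 4, 0 were higher and 13 lower, where 2.32% of all genes were higher and 4.61% lower. The list's median difference was -0.87 with all arrays, against -0.07 over all genes. Cst6, cystatin M/E, which inhibits lysosomal cysteine proteases of the upper epidermis, had 0.06, 0.40, 0.18 and 2.98 in double mutant, against 3.64, 4.00, 4.23 and 3.89 in Bmi1 mutant and 0.32, 0.31, 0.03 and 0.03 in wild-type colonies. Its groups of mutants did not overlap, and the difference was -3.04 ± 0.51 (limma adjusted p = 0.0044). A dimmer Cst6 probe, A_51_P417933, was not called between the mutants (-0.91, limma adjusted p = 0.413). Serpine2, an inhibitor of thrombin and plasminogen activators, was lower, with a difference of -2.39 ± 0.21 (limma adjusted p = 8.14e-05) and replicate 4 among the low arrays. Against wild type the list had 6 higher and 8 lower genes in double mutant colonies and 12 higher and 5 lower in Bmi1 mutant colonies, beside the shares of all genes given above (25.5% higher and 59.9% lower in double mutant, 25.2% and 58.3% in Bmi1 mutant). Slpi, the secretory leukocyte protease inhibitor, had 6.55 to 7.22 in Bmi1 mutant colonies, against 3.70, 5.28, -1.04 and -0.63 in wild-type colonies, where the first pair is far above the second (5.04 ± 1.23, limma adjusted p = 0.00202). Its other, dimmer probe, A_51_P135148, went the opposite way (-2.92 ± 0.28, limma adjusted p = 1.38e-06), so the direction of Slpi is not settled. Serpinb3a was 3.84 ± 1.24 higher in Bmi1 mutant colonies than in wild type (limma adjusted p = 0.0112). In double mutant colonies Serpinb5, also called maspin, was 2.81 ± 0.29 higher than in wild type (limma adjusted p = 1.85e-06) and Spink8 was lower (-2.73 ± 0.30, limma adjusted p = 2.76e-06), with Spink8 well above background on 2 of 4 double mutant arrays.

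Among their substrates and structural partners, corneodesmosin (Cdsn), the corneodesmosome protein that Klk5, Klk7 and Klk14 cut, was high in Bmi1 mutant colonies. Its levels were -1.29, -1.57, -2.04 and 2.09 in double mutant, against 3.30, 2.57, 2.85 and 3.28 in Bmi1 mutant and -1.17, -0.64, -1.23 and -1.22 in wild-type colonies. Replicate 4 was above the other double mutant colonies but below every Bmi1 mutant colony. Cdsn was lower in the double mutant, with a difference of -3.70 ± 0.68 (limma adjusted p = 0.00683), or -4.63 ± 0.26 without replicate 4 (limma adjusted p = 1.05e-05). Dsg4, a desmosomal cadherin of hair and upper epithelium, was not well above background on any double mutant array and was at least 3.46-fold lower there than in the Bmi1 mutant group (limma adjusted p = 0.000833). Here and below, such a bound sets the brighter genotype's mean against the lowest signal that counted as well above background on the dim arrays. Of 11 substrates tested between the mutants, 0 were higher and 2 lower, where 2.75% of all genes were higher and 4.8% lower. Without replicate 4, 0 were higher and 4 lower, where 2.32% of all genes were higher and 4.61% lower. Against wild type 5 were higher and 3 lower in double mutant, and 7 higher and 2 lower in Bmi1 mutant colonies, where 25.5% and 25.2% of all genes were higher and 59.9% and 58.3% lower. Dsg1b, a desmoglein, was 2.53 ± 0.45 higher in Bmi1 mutant colonies than in wild type (limma adjusted p = 0.000183), Cdsn 4.07 ± 0.68 higher (limma adjusted p = 0.00012), and Dsc2, a desmocollin, 2.24 ± 0.30 higher in double mutant than in wild-type colonies (limma adjusted p = 1.56e-05). Dsg4 in double mutant colonies was at least 8.31-fold lower than in wild type (limma adjusted p = 1.91e-07).

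The list of proteases that work upstream of or beside the kallikreins, which also holds the receptor gene Plaur, gave 3 calls between the mutants. Of 21 genes tested, 1 was higher and 2 were lower in the double mutant than in the Bmi1 mutant. Across all genes 2.75% were higher and 4.8% lower. Ctsc, cathepsin C, which activates granule serine proteases, was higher by 1.73 ± 0.25 (limma adjusted p = 0.00189). Tmprss2, a membrane serine protease, was lower (-1.17 ± 0.30, limma adjusted p = 0.0336). St14, matriptase, which can activate kallikrein precursors, was also lower (-0.80 ± 0.21, limma adjusted p = 0.0408). Both calls were lost without replicate 4, at a limma adjusted p of 0.050019 for Tmprss2 and 0.0887 for St14. That left 1 higher and 0 lower, where 2.32% of all genes were higher and 4.61% lower. Against wild type 9 were higher and 5 lower in each mutant, where 25.5% of all genes were higher and 59.9% lower in double mutant and 25.2% and 58.3% in Bmi1 mutant colonies. Mep1a, a meprin subunit, was lower in double mutant (-2.92 ± 0.51, limma adjusted p = 0.000149) and in Bmi1 mutant colonies (-3.01 ± 0.51, limma adjusted p = 0.000124). Mep1b, the other subunit, was not well above background in any Bmi1 mutant colony and was at least 5.12-fold lower there than in wild type (limma adjusted p = 0.000382). In double mutant colonies it was well above background on 1 of 4 arrays and was lower than in wild type (-2.85 ± 0.74, limma adjusted p = 0.00299).

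The protease-activated receptors, through which kallikreins can signal to cells, gave 0 calls between the mutants, in 4 genes with limma adjusted p of 0.297 to 0.8. Across all genes 2.75% were called higher and 4.8% lower, so 0 of 4 is near those shares. Of the 4, 0 had an unadjusted p under 0.05, for which no share of all genes is given. F2rl1, the receptor PAR2 that Klk5 and Klk14 can activate, averaged 2.49 in double mutant, 2.13 in Bmi1 mutant and 0.48 in wild-type colonies. It was higher than in wild type by 2.01 ± 0.39 in double mutant (limma adjusted p = 0.000345) and by 1.65 ± 0.39 in Bmi1 mutant colonies (limma adjusted p = 0.0016). F2r, the receptor PAR1, was higher by 1.38 ± 0.32 in double mutant (limma adjusted p = 0.00119) and by 0.78 ± 0.32 in Bmi1 mutant colonies (limma adjusted p = 0.0347). F2rl2, the receptor PAR3, was lower than in wild type in double mutant (-1.97 ± 0.26) and in Bmi1 mutant colonies (-2.29 ± 0.26). F2rl3, the receptor PAR4, was lower too, at -1.45 ± 0.38 in double mutant and -1.67 ± 0.38 in Bmi1 mutant colonies. Set against the median of all genes, F2rl2 was at -0.56 in double mutant and -1.05 in Bmi1 mutant colonies, and F2rl3 at -0.04 and -0.43.

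The other kallikreins of the mouse are mostly the Klk1b glandular kallikreins. Of 15 tested, 0 were called between the mutants, where 2.75% of all genes were higher and 4.8% lower. Without replicate 4, 0 were higher and 1 was lower (Klk9, above), where 2.32% of all genes were higher and 4.61% lower. Against wild type 15 of 15 were lower in both mutants, where 59.9% of all genes were lower in double mutant and 58.3% in Bmi1 mutant colonies. Some lay at the shift of all genes: relative to its median, Klk15 was at 0.00 in double mutant and -0.19 in Bmi1 mutant colonies, and Klk1b21 at -0.04 and -0.14. The list's median difference from wild type was -3.11 in double mutant colonies, or -1.70 relative to all genes, and -2.91 in Bmi1 mutant colonies, or -1.67 relative to all genes. Klk1b1 differed from wild type by -5.45 ± 0.26 in double mutant (limma adjusted p = 7.02e-09) and by -5.10 ± 0.26 in Bmi1 mutant colonies (limma adjusted p = 1.12e-08). Klk1b16 was not well above background on any mutant array, and it lay below wild type by at least 9.19-fold in double mutant and at least 11.2-fold in Bmi1 mutant colonies. Klk4 differed from wild type by -3.01 ± 0.48 in double mutant and by -3.07 ± 0.48 in Bmi1 mutant colonies. Relative to the median of all genes, Klk4 was at -1.60 and -1.83. The Klk1b genes are near-identical copies, so their probes may share signal and the single genes are uncertain.

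Genes with the most similar layout were sought among 16116 named genes, by Pearson correlation over 12 arrays after each genotype's mean was removed. The 5 highest were Csta1 (r = 0.976), Stfa1 (r = 0.976), Glrx (r = 0.973), Cstdc5 (r = 0.972) and Nipal1 (r = 0.967). Csta1, Stfa1 and Cstdc5 are stefins, cystatins that inhibit cysteine proteases, from a mouse family of near-identical copies whose probes may share signal, and the first pair also stands in the inhibitor list. Glrx is glutaredoxin, a thiol oxidoreductase. Csta1 had -0.55, 0.51, -0.50 and 4.50 in double mutant, against 2.78, 2.51, 2.69 and 2.69 in Bmi1 mutant and 0.95, 1.39, 0.51 and 0.35 in wild-type colonies, so replicate 4 of the double mutant again stood above all arrays. These likenesses rest on that array. Over the other 11 arrays r was 0.711 for Csta1, 0.688 for Stfa1, 0.633 for Glrx, 0.66 for Cstdc5 and 0.869 for Nipal1, and the ranks were 119, 149, 229, 186 and 18. Arrays of 1 genotype share slides and overall signal spread, and the correlations are descriptions. Each member's correlation with the mean of the other 7 was 0.569 for Klk14 to 0.932 for Klk6 over 12 arrays, and -0.288 for Klk5 to 0.775 for Klk14 over 11.

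**Figure D5:**
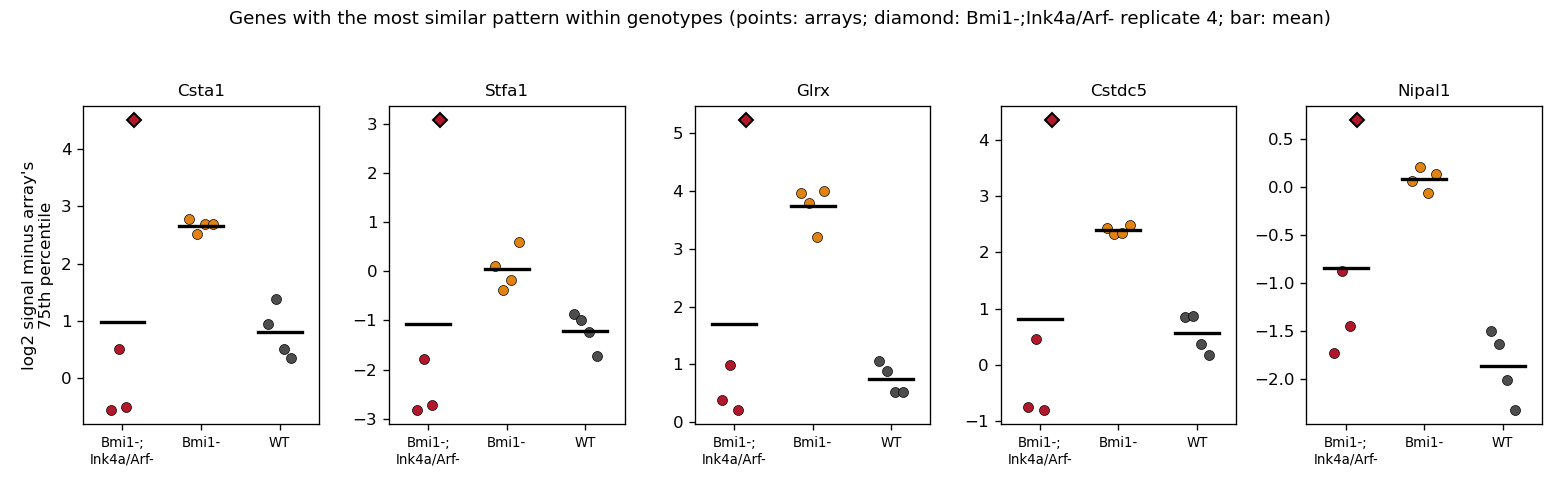
Levels of the 5 genes whose layout within genotypes was most like that of the kallikreins and Spink5, as log2 signal with the array's 75th percentile subtracted, 4 colonies of each genotype. Points are single arrays, the diamond is double mutant (Bmi1-;Ink4a/Arf-) replicate 4, bars are group means, and each panel has its own scale. The diamond is the highest array in each panel, at 4.50 for Csta1 and 0.69 for Nipal1.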

How the data were processed

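Total RNA of 12 colonies was amplified, given a Cy3 label and run on Agilent arrays of 1 colour, per the labels' protocols. The authors' scanner files hold background-subtracted intensity per spot (Feature Extraction 10.7.3.1, protocol GE1_107_Sep09), per the file headers, and whole-number flags per spot. The authors' deposited table of the same arrays lies on a log2 scale brought to a near-common distribution by a method not given in the sources used here, and served as an alternative.

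The intensity was log2-transformed and each array's 75th percentile subtracted. Control spots and outlier-flagged spots were left out. Kept were 39338 probes that, in 1 genotype or more, were well above background on 3 or 4 of its arrays, spots of a probe averaged, and the brightest probe stood for a gene. Symbols came from accessions matched to RefSeq: 24844 probes had 1 symbol and 16330 none. One limma 3.58.1 model (R 4.3.3) of all 12 arrays gave 3 contrasts, adjusted by Benjamini and Hochberg over 31064 genes. The script was tested on simulated data. Precision is limited by the 4 arrays a genotype.

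The members, the gene lists and the naming rule were chosen with earlier results of these data known. All members and Klk4 were named. From each list the rule took up to 3 called genes with the largest difference between the mutants, up to 2 against wild type, and every called protease-activated receptor. One gene the rule named is not reported here. Alternatives covered the background correction, scaling, filter, slide, replicate numbers, array weights and each array left out. The files have no mean signal column, so the normexp correction used the median signal. Replicate numbers did not pair samples: correlations of same-numbered deviations were -0.141 to 0.216.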

Additional observations from a re-analysis of the deposited data

Results flagged for a closer look

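A sample far from the other 3 of its genotype, by Dixon's ratio of its gap to the group's range, was found in 8 of 98 groups of 4 examined, and chance flags about 1 in 20. Klk7 in double mutant replicate 4 stood high on 2 of its 3 probes, with a level of 5.14 against -0.40 for the nearest array (ratio 0.91) and 2.45 against -3.05 (ratio 0.848). Across all genes 0.659% had double mutant replicate 4 flagged high. Cst6 was high in the same array (0.881) and Tmprss2 low in it (0.838). Wild-type replicate 3 was low for Klk1b1 (0.835) and high for Cdsn (0.894) and F2rl3 (0.841). Serpinb5 was high in Bmi1 mutant replicate 1 (0.874). The causes were not tested.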

How the results depend on the processing

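The count of family members lower in the double mutant than in the Bmi1 mutant, 1 as reported, was 0 with normexp correction, median scaling, quantile normalisation, no filter, the replicate block or only the 8 mutant arrays. It was 2 with probes well above background on all 12 arrays or with array weights. With each array left out in turn it was 0 to 5, and only without double mutant replicate 4 was it above 1. The count lower in double mutant than in wild type, 0 as reported, was 1 with the all-12-array filter and 1 with array weights, and 0 to 3 with each array left out. The count higher in Bmi1 mutant colonies than in wild type was 6 with the replicate block and 7 under the other alternatives that give a count, though Klk7 was not called on probe A_52_P538490 alone (2.29, limma adjusted p = 0.0877). That higher in double mutant than in wild type was 3 to 5, 3 only with the replicate block.

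Differences that changed sign were none of them called in the fit reported. Klk5 in Bmi1 mutant against wild type was 0.41 with median scaling. Klk6 in double mutant against wild type was 0.18 with normexp, 0.94 with median scaling and 0.13 in the authors' table, and -1.44 to 0.70 with each array left out. Klk7 in the same comparison was -0.25 with quantile normalisation, -0.23 in the authors' table, -0.59 with array weights, -1.13 on probe A_52_P538490 and -1.37 to 0.66 with each array left out. The causes were not tested. Over all genes, 855 were higher and 1492 lower in the double mutant than in the Bmi1 mutant, against 585 and 451 with normexp, 520 and 860 with quantile normalisation, 507 and 885 with the replicate block, and 347 and 622 with only the 8 mutant arrays. The share of calls that were higher was 36.4% there, 56.5% with normexp and 48.8% in the authors' table. It was 30.1% in Bmi1 mutant against wild type, and 46.9% with median scaling, and 29.9% in double mutant against wild type, and 46.1% with median scaling. Among counts of the related lists, 587 stayed within 1.5 times the reported count and 53 did not.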
